A study of Homo sapiens with 8 samples.

Results

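Mediator is the large protein complex that carries signals from DNA-bound transcription factors to RNA polymerase II. The genes of its subunits were compared between estradiol-treated and vehicle-treated K562 cells, an established human line from a chronic myeloid leukaemia with erythroid features. Members were all genes whose only annotated symbol has the form MED and a number, with or without a final L, together with CCNC, CDK8 and CDK19. That gave 31 of the 19775 genes measured, and MED6 and MED25 were not analysed here. The value used to choose each gene's probe set was its mean level over all 8 arrays, which takes no account of the difference between groups. All 31 genes entered the test, since no filter on dim genes was applied.

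The 2 groups were 4 samples given 1 µM beta-estradiol for 6 h and 4 samples given the ethanol vehicle for 6 h. Both groups stably expressed p42-C/EBPα-ER, in which the full-length form of the myeloid transcription factor C/EBPα is fused to an oestrogen receptor (ER), and the medium of both, without phenol red, held 10% serum stripped with charcoal. Estradiol sends such a fusion to the nucleus. No group without the fusion is among the samples, and the sources used here do not say if the cells were a clone or a pool. Every difference is therefore that of estradiol in cells that carry the fusion. Values are log2 levels from expression arrays, and a called gene has a Benjamini-Hochberg adjusted p below 0.05 over all genes in limma. A difference in bulk RNA cannot tell fewer expressing cells from less RNA per cell.

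Array medians ran from 4.97 to 5.08 on the log2 scale. Erythroid markers of K562 were present, with embryonic globin HBZ at 13.93 ± 0.02 with estradiol and 13.97 ± 0.03 with vehicle (log2 level, SD, n = 4) and the transferrin receptor TFRC at 13.08 ± 0.02 with estradiol and 13.00 ± 0.04 with vehicle. Of 9 erythroid markers measured 4 fell (GATA1, GATA2, KLF1 and HBE1), beside 9.6% of all genes called lower, and the list mean was 10.46 to 10.48 over estradiol arrays, against 10.67 to 10.72 over vehicle arrays. Their part in the Mediator results was not tested. The mean of 9 markers of lymphocytes, monocytes and stromal cells stood at 5.39 to 5.56 with estradiol and at 5.51 to 5.58 with vehicle, and 0 of the 9 were called by limma (1 at an unadjusted p under 0.05, in the lower direction). Their levels were not alike, from MS4A1 at 4.06 with estradiol and 4.12 with vehicle to CD3D at 7.92 and 7.99. COL1A1 stood at 7.62 and 7.67. No detection calls were used, so how far a level lies above background is unknown. Vehicle replicate 2 had the weakest correlations with the other vehicle arrays over all probe sets, 0.9935 to 0.9952, against 0.9970 to 0.9979 among the other 3. Estradiol replicate 1 had the weakest within its own group, 0.9961 to 0.9965, against 0.9976 to 0.9980 among the other 3. It also had the lowest array median, 4.97.

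Mediator works as a bridge. Its head and middle modules contact RNA polymerase II and the general transcription factors, its tail offers surfaces to activators, and MED14 runs through the complex as its scaffold. A detachable kinase module, made of cyclin C, CDK8 or its paralog CDK19, MED12 and MED13 or their paralogs MED12L and MED13L, binds the core reversibly and competes with the polymerase. In blood cells MED1 is known as a partner of nuclear receptors and of GATA1, and MED23 and the kinase module are known coregulators of C/EBPβ.

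Estradiol raised 8 Mediator genes and lowered 0. MED13L of the kinase module rose most, by 1.42-fold. Next were MED31 at 1.30-fold, MED7 at 1.27-fold and MED4 at 1.23-fold, which all lie in the middle module. MED15 of the tail, MED20 of the head, MED13 of the kinase module and the scaffold MED14 rose by 1.16-fold to 1.20-fold. The other 23 genes were not called, and the differences of all 31 lay between −0.17 and 0.50 on the log2 scale.

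Rises thus made up 25.8% of the Mediator genes, beside 8.29% of all genes called higher, and falls made up 0 of 31 beside 9.6% called lower. In both directions together 17.9% of all genes were called. Among genes with a mean log2 level of at least 5, where calls were more frequent, 12.2% were called higher and 13.9% lower, against 8 of 29 and 0 of 29 Mediator genes. At an unadjusted p under 0.05 limma gave 12 Mediator genes higher and 4 lower, beside 12.4% and 15.8% of all genes. The median log2 difference was 0.09 over the Mediator genes and −0.03 over all genes. Estradiol and vehicle arrays did not overlap in 12 Mediator genes that were higher with estradiol and in 2 that were lower, beside 11.1% and 12.9% of all genes. Since the members were chosen with earlier results of these data known, these shares are descriptions and carry no test of the set.

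**Figure D1:**
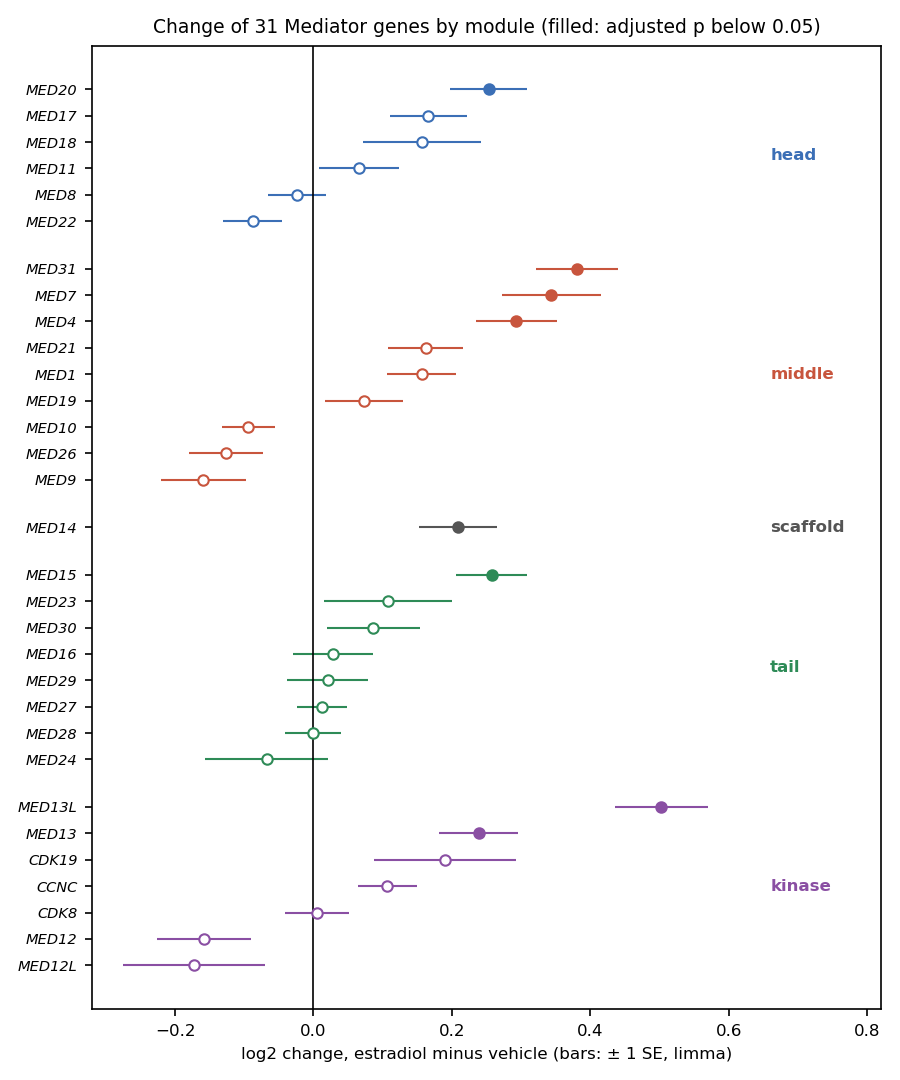
Log2 difference (estradiol minus vehicle) of each of the 31 Mediator genes, with bars of 1 standard error either side, grouped and coloured by module. Filled points passed the test; all 8 lie to the right of 0, from MED14 at 0.21 to MED13L at 0.50.

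Vehicle replicate 2 stood low for the Mediator genes. The mean log2 level of the 31 genes was 8.42, 8.43, 8.41 and 8.42 in estradiol replicates 1 to 4, against 8.39, 8.24, 8.34 and 8.34 in vehicle replicates 1 to 4. Every estradiol array thus lay above every vehicle array, and vehicle replicate 2 lay lowest. It held the lowest of the 4 vehicle values in 24 of the 31 genes. Without that array limma called the same 8 genes higher and 0 lower, with log2 differences of 0.16 for MED14 to 0.44 for MED13L. The mean over all genes with a level of at least 5 was 7.67 in estradiol replicate 1 and 7.71 in the rest of that group, against 7.67 in vehicle replicate 2 and 7.71 to 7.73 in the rest of its group.

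**Figure D2:**
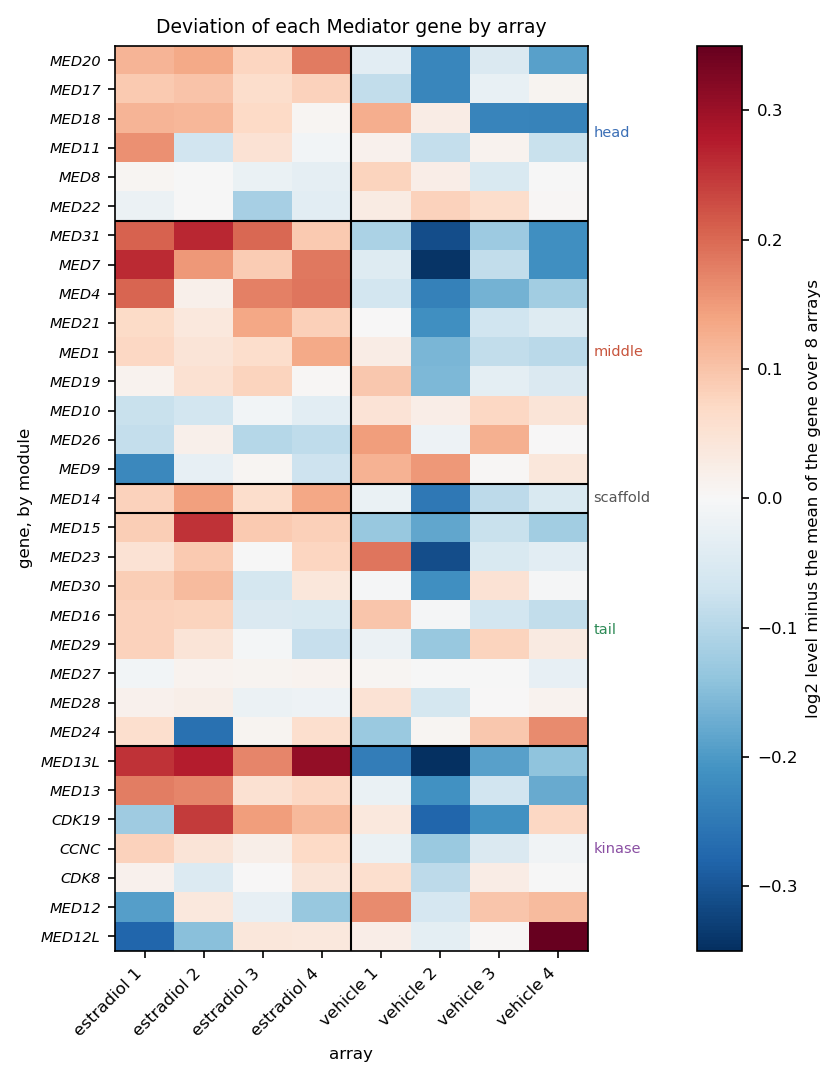
Log2 level of each Mediator gene minus its own mean over the 8 arrays, with estradiol arrays on the left, vehicle arrays on the right and genes by module (colours end at 0.35 either side). The 8 called genes are red in the estradiol columns and blue in the vehicle columns, and vehicle replicate 2 is the bluest column.

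The promoters of the 4 genes with the largest rises are shown to give the sequence context of the largest differences. Each runs from 250 bases before the annotated start to 50 bases after it, 5′ to 3′ on the gene's strand, from RefSeq on GRCh38.p14. MED13L is at chr12:116277644-116277943 (minus strand), MED31 at chr17:6651556-6651855 (minus strand), MED7 at chr5:157142816-157143115 (minus strand, the upstream of its 2 listed starts) and MED4 at chr13:48095055-48095354 (minus strand). Capitals mark matches to the motifs searched.
MED13L: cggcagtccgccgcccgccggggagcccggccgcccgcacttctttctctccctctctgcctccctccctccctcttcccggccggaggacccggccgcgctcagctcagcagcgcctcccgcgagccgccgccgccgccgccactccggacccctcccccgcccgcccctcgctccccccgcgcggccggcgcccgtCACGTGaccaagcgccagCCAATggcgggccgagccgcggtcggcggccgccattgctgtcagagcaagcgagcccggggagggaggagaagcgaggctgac
MED31: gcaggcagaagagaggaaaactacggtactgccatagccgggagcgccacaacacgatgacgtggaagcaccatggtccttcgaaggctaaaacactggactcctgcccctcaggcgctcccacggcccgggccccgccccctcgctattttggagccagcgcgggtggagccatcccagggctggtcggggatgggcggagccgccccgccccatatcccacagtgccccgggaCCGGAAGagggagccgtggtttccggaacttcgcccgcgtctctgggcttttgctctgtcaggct
MED7: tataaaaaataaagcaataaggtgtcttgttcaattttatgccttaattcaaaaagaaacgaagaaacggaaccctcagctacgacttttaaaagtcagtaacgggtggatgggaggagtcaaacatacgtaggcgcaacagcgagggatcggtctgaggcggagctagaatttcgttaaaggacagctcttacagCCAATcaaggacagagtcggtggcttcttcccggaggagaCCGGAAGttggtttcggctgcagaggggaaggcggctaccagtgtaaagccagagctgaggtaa
MED4: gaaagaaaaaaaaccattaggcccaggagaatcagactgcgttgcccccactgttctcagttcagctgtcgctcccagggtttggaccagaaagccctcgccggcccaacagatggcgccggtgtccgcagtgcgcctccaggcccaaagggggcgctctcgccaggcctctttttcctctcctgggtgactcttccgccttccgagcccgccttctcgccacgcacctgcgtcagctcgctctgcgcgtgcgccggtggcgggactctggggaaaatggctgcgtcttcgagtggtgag

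Motifs were searched on both strands as TTGCNNAA for C/EBP, CACGTG for the E-box that MYC and MAX bind, GGTCA and TGACC with any 3 bases between them for the oestrogen response element, CCGGAAG for ETS factors and CCAAT for the CCAAT box. The MED13L window held an E-box and a CCAAT box, that of MED7 an ETS motif and a CCAAT box, that of MED31 an ETS motif, and that of MED4 none of the 5, and no matches shown overlapped. RefSeq windows were used for 24 of the 31 genes, as 29 windows. Any Mediator window on chromosome 8 was left out, while the windows of all genes kept that chromosome, so the shares below compare unlike sets. The C/EBP letters were in 5 of the 29 (17.2%), those of CDK19, MED15, MED27 and MED9, beside 10.5% of all 35116 windows, and in 0 of the 4 windows shown. ETS letters were in 8 of the 29 (27.6%) beside 10.3% of all windows, and the E-box in 2 (6.90%) beside 7.26%. The CCAAT box was in 11 of the 29 (37.9%), near its share of 34.6% in all windows. The oestrogen response element was in 0 of the 29, beside 0.0570% of all windows. These matches describe the sequence only.

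The middle module held the largest share of rises among the modules with several genes, 3 of 9 (33.3%). The kinase module had 28.6%, and 8.29% of all genes were called higher. The order of the modules was not tested. The middle module was also divided in sign: at an unadjusted p under 0.05 limma gave 5 of its genes higher and 3 lower. Those 3 were among the 4 Mediator genes lower at that level. Over all genes the shares were 12.4% higher and 15.8% lower. The middle module links the head to the scaffold and carries subunits that touch the tail of the polymerase's largest chain. MED31, a small and highly conserved middle subunit, had log2 levels of 8.66, 8.72, 8.66 and 8.55 in estradiol replicates 1 to 4, against 8.35, 8.15, 8.33 and 8.24 in vehicle replicates 1 to 4. The groups did not overlap, and the difference was 0.38 ± 0.06 (SE, adjusted p = 0.00197). That result belongs to 1 of its 3 probe sets: the others, with means of 5.93 and 5.00, differed by 0.13 and −0.09, and the mean of all 3 differed by 0.14 (adjusted p = 0.213).

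MED7, which pairs with MED21 to form a hinge of the middle module, stood at 8.40, 8.29, 8.23 and 8.32 with estradiol, against 8.09, 7.79, 8.05 and 7.92 with vehicle. All estradiol values were above all vehicle values, a difference of 0.34 ± 0.07 (SE, adjusted p = 0.00919). A second MED7 probe set gave 0.36 and was also called among all probe sets (adjusted p = 0.00563), while the third gave 0.10.

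MED4, a subunit that pairs with MED9 in the middle module, had 9.43, 9.24, 9.40 and 9.41 with estradiol, against 9.16, 8.98, 9.05 and 9.10 with vehicle. Estradiol replicate 2 was the lowest of its group and still above every vehicle array. The difference was 0.29 ± 0.06 (SE, adjusted p = 0.00722), and the other probe set showed 0.23 without a call.

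The remaining middle genes did not pass the test. MED1, the docking subunit for nuclear receptors, averaged 9.92 ± 0.04 with estradiol and 9.76 ± 0.08 with vehicle (SD, n = 4), which differ by 0.16 ± 0.05 (SE, adjusted p = 0.0624) with no overlap, and adjusted p = 0.0211 without vehicle replicate 1. MED21, the hinge partner of MED7, differed by 0.16 ± 0.05 (SE, adjusted p = 0.0764). Of their other probe sets, 1 of 3 for MED1 (0.22) and the single other for MED21 (0.20) were called higher among all probe sets. MED26, a subunit that recruits elongation factors, stood at 8.21 ± 0.05 with estradiol and 8.33 ± 0.08 with vehicle, which differ by −0.13 ± 0.05 (SE, adjusted p = 0.161). With quantile normalization of the arrays MED26 was called lower (−0.16, adjusted p = 0.0208). MED9 differed by −0.16, so the genes of the pair MED4 and MED9 had differences of opposite sign. MED10 differed by −0.09 with no overlap of the groups. MED19, which other accounts place in the head, differed by 0.07.

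MED14, the scaffold that holds head, middle and tail together, had log2 levels of 8.05, 8.11, 8.03 and 8.11 with estradiol, against 7.95, 7.72, 7.88 and 7.92 with vehicle. The groups did not overlap, with a difference of 0.21 ± 0.06 (SE, adjusted p = 0.0319). MED14 was called in 9 of 19 alternative fits, the fewest of the 8. Its call was lost without any estradiol replicate in turn or without vehicle replicate 3 or 4 (adjusted p = 0.0528 to 0.0914), and with the mean of its 5 probe sets (0.12, adjusted p = 0.171).

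In the head, which makes the first contact with the polymerase, 1 of 6 measured genes rose (16.7%), beside 8.29% of all genes called higher. MED20, which forms a mobile unit with MED18, had 9.17, 9.18, 9.12 and 9.23 with estradiol, against 9.01, 8.82, 9.001 and 8.86 with vehicle. The vehicle arrays spread more widely than the estradiol arrays but stayed below them, and the difference was 0.25 ± 0.06 (SE, adjusted p = 0.0124). Both of its probe sets were called higher among all probe sets, the other at 0.21. MED18, the partner, differed by 0.16 ± 0.09 with overlapping groups (adjusted p = 0.285).

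MED17, the central head subunit, stood at 9.46 ± 0.02 with estradiol and 9.29 ± 0.10 with vehicle (SD, n = 4), which differ by 0.17 ± 0.06 (SE, adjusted p = 0.0764) with no overlap. Vehicle replicate 2 was its lowest array at 9.14, and without it the difference was 0.12 (adjusted p = 0.0896). Of the 11 alternative fits that kept every array, 4 called MED17 higher (adjusted p = 0.0110 to 0.0476). With the mean of its 3 probe sets MED17 differed by 0.10 (adjusted p = 0.340). MED11 differed by 0.07, MED8 by −0.02 and MED22 by −0.09, the last with no overlap of the groups, and none was called.

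In the tail, the part that activators reach first, 1 of 8 measured genes rose (12.5%), beside 8.29% of all genes called higher. Among all genes with a mean log2 level of at least 5 that share was 12.2%. MED15, a target of many activators with a domain that binds their acidic stretches, had 9.96, 10.13, 9.97 and 9.96 with estradiol, against 9.75, 9.70, 9.80 and 9.76 with vehicle. Estradiol replicate 2 stood above the other 3, and every estradiol array was above every vehicle array. The difference was 0.26 ± 0.05 (SE, adjusted p = 0.00777), or 0.22 without estradiol replicate 2 (adjusted p = 0.0163). MED15 has a single probe set here.

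The other tail genes were not called. MED23, known as a partner of C/EBPβ and of the ETS factor ELK1, had 7.74, 7.78, 7.69 and 7.76 with estradiol, against 7.88, 7.38, 7.64 and 7.65 with vehicle. The groups overlapped because vehicle replicate 1 was the highest array of all, while vehicle replicate 2 was the lowest. The difference was 0.11 ± 0.09 (SE, adjusted p = 0.527, 95% interval −0.10 to 0.32). It was 0.02 without vehicle replicate 2 and 0.19 without vehicle replicate 1. MED28 was the most densely probed member, and its 10 probe sets differed by −0.15 to 0.03 with none called. MED27 had 9.25 ± 0.01 with estradiol and 9.24 ± 0.01 with vehicle, which differ by 0.01 with a 95% interval of −0.07 to 0.09. MED16 differed by 0.03, MED29 by 0.02 and MED30 by 0.09. MED24 was read from a probe set with a mean of 4.50, below the array medians, and differed by −0.07.

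In the kinase module 2 of 7 genes rose, beside 8.29% of all genes called higher. Both were forms of MED13, the subunit that ties the module to the core. MED13L had log2 levels of 8.32, 8.34, 8.24 and 8.37 with estradiol, against 7.82, 7.64, 7.88 and 7.93 with vehicle. The lowest estradiol array exceeded the highest vehicle array by more than the spread within either group. The difference was 0.50 ± 0.07 (SE, adjusted p = 0.000786), and it stayed called in all 19 alternative fits. Of its 5 probe sets 4 were called higher among all probe sets, with differences of 0.49 to 0.60, and the other showed 0.30 with no overlap of the groups.

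MED13 had 10.16, 10.15, 10.03 and 10.05 with estradiol, against 9.96, 9.77, 9.91 and 9.80 with vehicle. The groups did not overlap, and the difference was 0.24 ± 0.06 (SE, adjusted p = 0.0181). MED13 missed the threshold when estradiol replicate 1, estradiol replicate 2 or vehicle replicate 4 was left out (adjusted p = 0.0512 to 0.0587). Its other 3 probe sets differed by 0.05 to 0.15 with no call, and the mean of all 4 by 0.13 (adjusted p = 0.0597).

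**Figure D3:**
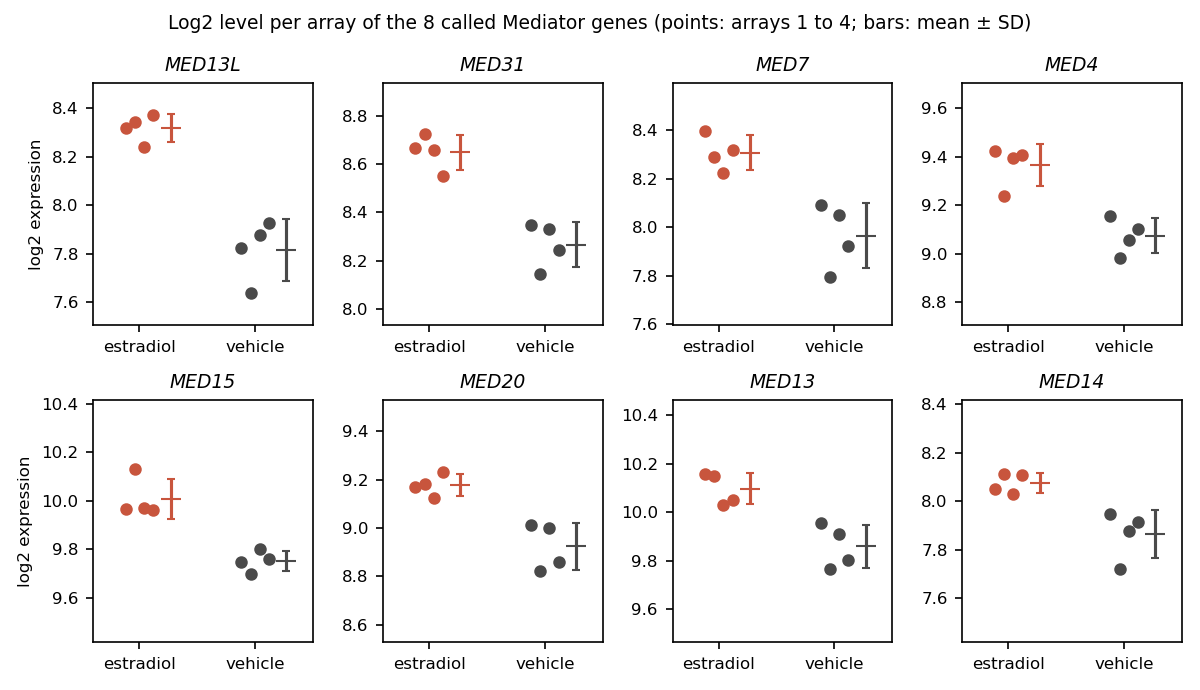
Log2 level per array of the 8 Mediator genes that rose, with estradiol arrays (red) left of vehicle arrays (grey) and mean ± SD beside the points (n = 4); every panel spans 1 log2 unit. In each panel all estradiol points lie above all vehicle points, by the widest margin in MED13L.

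The kinase itself and its cyclin were not called. CDK8 had 9.42, 9.36, 9.41 and 9.45 with estradiol, against 9.47, 9.32, 9.43 and 9.41 with vehicle, fully overlapping groups with a difference of 0.01 ± 0.05 (SE, adjusted p = 0.965, 95% interval −0.10 to 0.11). Its probe sets did not agree. The dimmest of the 3, with 7.92, 7.89, 7.86 and 7.89 with estradiol and 8.12, 8.11, 8.16 and 8.12 with vehicle, was called lower among all probe sets (−0.24 ± 0.05 SE, adjusted p = 0.00789). It was the only Mediator probe set of 91 called lower.

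CDK19, the paralog that can take the place of CDK8, had 6.78, 7.15, 7.06 and 7.02 with estradiol, against 6.95, 6.63, 6.70 and 6.98 with vehicle. The groups overlapped, and the difference was 0.19 ± 0.10 (SE, adjusted p = 0.279). A second CDK19 probe set, with 6.49, 6.65, 6.51 and 6.51 with estradiol and 6.35, 5.96, 6.24 and 6.08 with vehicle, did not overlap and was called higher among all probe sets (0.38 ± 0.09 SE, adjusted p = 0.0204). With the mean of its 4 probe sets CDK19 was called higher over all genes (0.19, adjusted p = 0.0272), while the mean of the 3 CDK8 probe sets differed by −0.11 (adjusted p = 0.153).

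CCNC, the cyclin that activates either kinase, stood at 11.17 ± 0.03 with estradiol and 11.07 ± 0.05 with vehicle (SD, n = 4). The groups differed by 0.11 ± 0.04 (SE, adjusted p = 0.137) with no overlap. CCNC was called higher among genes above the median level (adjusted p = 0.0381) and with a variance trend (adjusted p = 0.0104). With the mean of its 2 probe sets it differed by 0.06 (adjusted p = 0.460). MED12, which activates the cyclin-bound kinase, stood at 7.53 ± 0.10 with estradiol and 7.69 ± 0.10 with vehicle, which differ by −0.16 ± 0.07 (adjusted p = 0.163). With quantile normalization it was called lower (−0.18, adjusted p = 0.0310). Its paralog MED12L had a mean of 4.97, near the array medians, and differed by −0.17 ± 0.10 (adjusted p = 0.330). With probe sets averaged MED12 differed by −0.06 (adjusted p = 0.472) and MED12L by −0.04 (adjusted p = 0.856), and the second MED12L probe set alone differed by 0.10.

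For the 3 pairs of paralogs the log2 ratio within each array was compared between groups by an exact two-sided permutation test, which with 4 against 4 arrays cannot give a p below 0.0286. The ratio of MED13L to MED13 was −1.84, −1.81, −1.79 and −1.68 with estradiol, against −2.13, −2.13, −2.04 and −1.88 with vehicle. The groups did not overlap, and the ratio was higher with estradiol by 0.26 on the log2 scale (exact p = 0.0286, adjusted over the 3 pairs 0.0857). The CDK19 to CDK8 ratio was higher by 0.18 with overlapping groups (exact p = 0.171, adjusted 0.257), and the MED12L to MED12 ratio differed by −0.01 (exact p = 0.914, adjusted 0.914). With the probe sets of each gene averaged, the MED13L to MED13 ratio was higher by 0.35 and the CDK19 to CDK8 ratio by 0.29, each at an adjusted exact p of 0.0429. A pair alone at the lowest possible p has an adjusted p of 0.0857. The value of 0.0429 was within reach only because another pair stood there too. These values compare changes, since the levels of different probe sets cannot be set against each other.

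Over all 91 Mediator probe sets, 15 (16.5%) were called higher and 1 (1.10%) lower, beside 5.32% and 5.05% of all 54675 probe sets and 10.4% in either direction. Probe sets of a gene read the same RNA and are not independent. Among the 24 genes with several probe sets MED20 was the single gene with every probe set called, and 9 genes had called and uncalled probe sets together. In 20 of the 31 genes none was called.

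**Figure D4:**
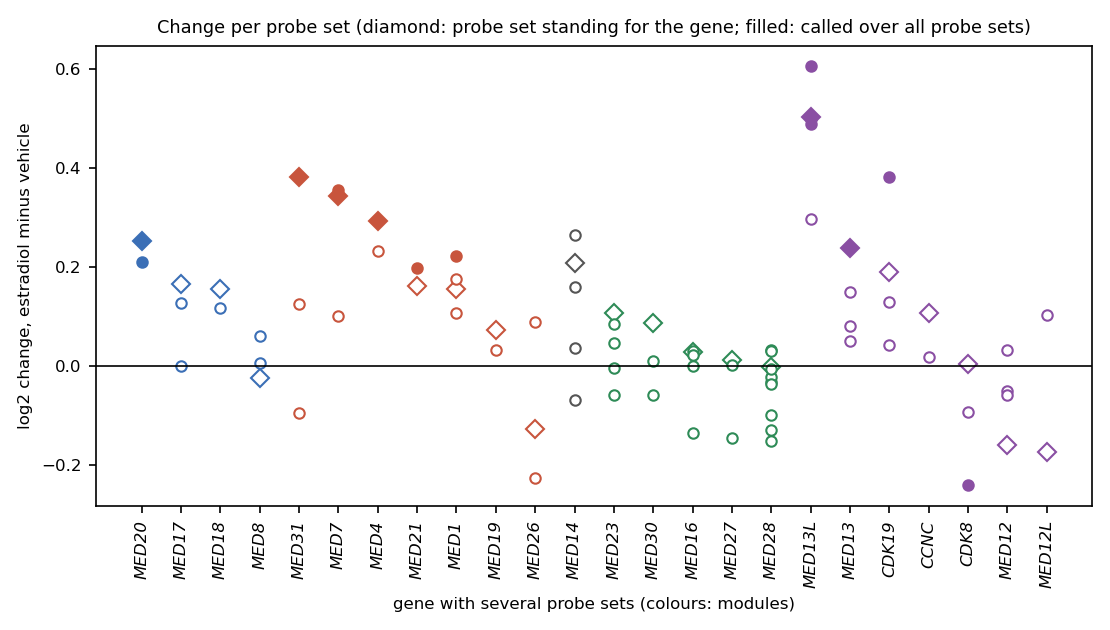
Log2 difference (estradiol minus vehicle) of every probe set of the 24 Mediator genes that have several, coloured by module. Diamonds stand for the gene in the main comparison and filled symbols were called over all probe sets; MED13L points lie between 0.30 and 0.60, CDK19 has a filled point at 0.38 and CDK8 a filled point at −0.24.

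Genes of machinery that meets Mediator at promoters and enhancers gave a mixed picture. Of 17 measured general transcription factors 0 rose and 2 fell, with a median log2 difference of 0.03. The falls made up 11.8% of the list beside 9.6% of all genes, a share near the background. Positive differences at an unadjusted p under 0.05 numbered 6, beside 12.4% of all genes. Both genes that fell encode parts of TFIIH, the factor that opens promoter DNA: GTF2H1 stood at 8.41 ± 0.04 with estradiol and 8.76 ± 0.11 with vehicle (SD, n = 4), which differ by −0.35 ± 0.06 (SE, adjusted p = 0.00271), and the helicase gene ERCC2 differed by −0.31 ± 0.04 (adjusted p = 0.0007). The other TFIIH genes of the list were not called and differed in sign. ERCC3 differed by 0.18 with no overlap, MNAT1 by 0.16, GTF2H5 by 0.08 and CDK7 by 0.04. GTF2H3 and CCNH each differed by −0.08 and GTF2H4 by −0.07.

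Of 21 measured pausing and elongation factors 3 rose and 2 fell, with a median of 0.00. The 5 calls made up 23.8% of the list, beside 17.9% of all genes in either direction, with 8.29% higher and 9.6% lower. AFF1, a scaffold of the super elongation complex, had 10.13, 10.24, 10.17 and 10.25 with estradiol, against 9.33, 9.12, 9.30 and 9.32 with vehicle. The groups were widely separated, with a 1.91-fold rise (0.93 ± 0.06 SE, adjusted p = 7.48e-06). With the mean of its probe sets the AFF1 difference was 0.62 (adjusted p = 4.13e-05). Its relative AFF4 rose by 0.33 ± 0.06 (adjusted p = 0.00509), but by 0.08 with no call with the mean of its probe sets (adjusted p = 0.488). MEPCE, which caps the RNA that holds the elongation kinase inactive, fell by 0.39 on the log2 scale (adjusted p = 0.000713). The other changes were in MLLT1, which fell by 0.21 (adjusted p = 0.0152, or 0.0516 without estradiol replicate 4 and 0.0522 without vehicle replicate 4), and MLLT3, named after its value was seen, which rose by 0.19 (adjusted p = 0.0451) with overlapping groups. MLLT3 was not followed through the alternative fits.

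Of 10 cohesin and loader genes, whose products hold together the loops that Mediator helps to form, 3 rose and 0 fell by limma (8 and 0 at an unadjusted p under 0.05), with all 10 differences above 0 and a median of 0.16. Over all genes 8.29% were called higher and 9.6% lower, and 12.4% were higher and 15.8% lower at an unadjusted p under 0.05. RAD21 had 10.79, 10.72, 10.73 and 10.83 with estradiol, against 10.45, 10.42, 10.54 and 10.56 with vehicle. The groups did not overlap, and the difference was 0.28 ± 0.05 (SE, adjusted p = 0.0041). SMC3 (0.23, adjusted p = 0.0332) and SMC1A (0.16, adjusted p = 0.0488) passed narrowly. SMC1A lost its call without any single array other than estradiol replicate 3 (adjusted p = 0.0599 to 0.126), and SMC3 when any estradiol array but replicate 3, or vehicle replicate 1 or 4, was left out (adjusted p = 0.0530 to 0.0954). The cohesin mean was 9.61 to 9.67 over the estradiol arrays, against 9.36 for vehicle replicate 2 and 9.52 to 9.53 for the 3 remaining vehicle arrays.

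**Figure D5:**
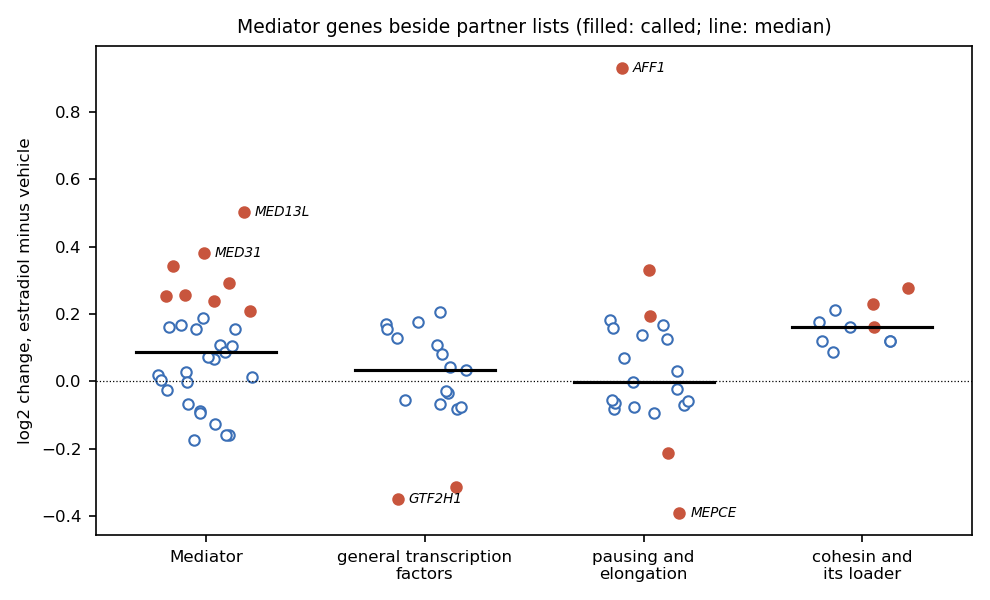
Log2 difference (estradiol minus vehicle) of each gene of Mediator and of the lists of partners; filled points were called and lines mark medians of 0.09 for Mediator, 0.03 for general transcription factors, 0.00 for pausing and elongation factors and 0.16 for cohesin. AFF1 at 0.93 lies above every Mediator gene, of which MED13L at 0.50 is the highest.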

How the data were processed

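RNA of 8 cultures was measured on an expression array, from 200 ng of total RNA per sample. The deposited values are log2 expression values which the authors computed by RMA (version not given), per the submitters' processing notes. RMA brings arrays to a common distribution, which can hide a shift common to most genes and shrinks differences of dim ones. The sources used here do not name the chip definition, the software or a genome build. Of 54675 probe sets 41097 had 1 gene symbol in the platform annotation, 1801 had several and 11777 had none listed. Of the first, 41043 were checked against the RefSeq gene table by gene identifier, and 0 symbols changed.

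Sample titles gave the groups and the replicate numbers and speak of biological replicates. Nothing more says how cultures were separated, so the p-values reflect only how these samples vary, which may be technical. Each of 19775 genes was represented by its probe set with the highest mean over 8 arrays and tested with limma 3.58.1 under R 4.3.3 (lmFit, then eBayes without a trend) for estradiol minus vehicle, two-sided, with Benjamini-Hochberg adjustment over all genes. Probe sets were also tested singly, adjusted over 54675. Paralog ratios used exact permutation tests in scipy 1.17.1. The fit was tested on simulated data with 50 genes changed at each size. It recovered 32% of log2 changes of 0.25 and 70% of 0.5, against 96% of 1 and 100% of 2. Of its 156 calls 7 were false. The real data held more calls (3538), so these shares may differ there. A gene not called may still have changed by a small amount. Same-numbered arrays of the groups did not vary together (correlations of deviations from −0.21 to 0.11), so no block was used.

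Members, modules, partner lists and the rule for full values (called members and 12 fixed ones, and up to 4 called genes per partner list) were chosen with earlier results of these data known. Partner list members not measured, 4 in all, were not analysed here.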

Additional observations from a re-analysis of the deposited data

Results flagged for a closer look

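Single arrays stood apart from the other 3 of their group in 7 of 72 sets of 4 values, for the Mediator genes and their module means. The test, Dixon's, flags about 1 in 20 such sets by chance. Estradiol replicate 2 was high for MED15 (10.13, others 9.96 to 9.97) and MED26 (8.29, others 8.17 to 8.19) and low for MED4 (9.24, others 9.40 to 9.43) and MED24 (4.24, others 4.51 to 4.56). Estradiol replicate 1 was low for MED27 (9.23, others 9.25 to 9.26). Vehicle replicate 4 was high for MED12L (5.32, others 4.93 to 4.99). Vehicle replicate 2 was low for the mean of the tail genes (8.03, others 8.13 to 8.15). MED4 and MED15 kept their calls without estradiol replicate 2.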

How the results depend on the processing

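MED13L, MED15, MED4 and MED7 were called higher in all 19 alternative fits, MED31 in 18, MED20 in 17, MED13 in 13 and MED14 in 9. Mediator genes called higher numbered 6 to 9 and those called lower 0 in the fits without 1 array, over which all genes called numbered 2732 to 3551 and partner genes 6 to 14 (10 with all arrays, 6 without estradiol replicate 4 or without vehicle replicate 4). With the replicate number as a block 5 Mediator and 6 partner genes were called, and 2598 genes in all. MED20, MED13 and MED14 were lost (adjusted p = 0.0552, 0.0506 and 0.0901), though the numbers did not pair the arrays. At an adjusted p below 0.01, 5 Mediator genes, 6 partner genes and 2179 genes in all (1040 higher, 1139 lower) passed. Among genes above the median level 2 of 29 Mediator genes were called lower, MED9 and MED10, with 12 higher and 21 partner genes called. That fit called 2267 of all 9887 genes lower and 2009 higher. Quantile normalization also gave 2 lower, MED12 and MED26, and 9 higher, beside 2421 lower and 1723 higher of all 19775 genes. A variance trend called 12 Mediator genes higher, 0 lower and 20 partner genes, beside 2116 of all 19775 genes higher and 2254 lower. A minimum level of 5 called 11 of 29 Mediator genes higher, 0 lower and 18 partner genes, beside 4143 of all 12949 genes, 1911 of them higher. Every probe set on its own gave 5669 calls, 2907 of them higher. When probe sets of a gene were averaged, the MED13L to MED13 ratio (0.35) and the CDK19 to CDK8 ratio (0.29) passed the test. Neither could have passed without the other, since a pair alone at the lowest possible exact p has an adjusted p of 0.0857. Counting MED19 and MED27 to MED30 with the head left 1 rise in the head (of 11), 3 in the middle (of 8) and 1 in the tail (of 4). Over all genes 8.29% were called higher. The cause of these shifts was not tested. The number of arrays and the unknown distance from background limit small changes of dim genes such as MED12L and MED24.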
